A study of Homo sapiens with 4 samples.

Results

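The integrin and laminin chains are the 38 genes, of 59885 in the authors' table, whose symbols name an integrin alpha chain, an integrin beta chain or a laminin alpha, beta or gamma chain. They were chosen by name, with earlier results of these data known, and 37 of them are described here. RNA was sequenced from cells labelled PANC-1, an established human pancreatic ductal adenocarcinoma line, as 2 libraries with CFL1 knocked out and 2 control libraries without the knockout. CFL1 encodes cofilin-1, which severs actin filaments, and the question is which transcripts its loss alters. The labels do not say how the gene was disrupted, whether the knockout cells were a clone or a pool, or what the control cells had received. They also do not say that the libraries came from separate cultures, so p-values measure no more than how these libraries vary, and that variation may be technical.

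Integrins are cell surface receptors made of an alpha and a beta chain, and the pair decides which matrix protein is bound. Laminins are trimers of an alpha, a beta and a gamma chain that form the sheet-like core of basement membranes and are themselves bound by several integrins. Inside the cell the integrin tails are coupled to actin filaments through adaptor proteins, and in epithelia one integrin is coupled to keratin filaments in hemidesmosomes.

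The authors deposited a single DESeq2 result per gene and no column per library. Whole reads of each library were recovered from the base means, the authors' averages of size-factor-scaled counts, for 30795 of the 30831 genes with a base mean above 0. The recovered libraries held 17048148 reads in knockout A, 14369778 in knockout B, 16643300 in control A and 16930986 in control B. The letters A and B are arbitrary and cannot be matched to the numbers in the labels. Control B was unlike the remaining libraries. Over 17274 genes averaging at least 10 normalized counts, the Pearson correlation of log2(normalized count + 1), a description across genes that are not independent, was 0.9859 between the knockouts. It was between 0.9782 and 0.9794 for each knockout with control A, between 0.7161 and 0.7189 for each knockout with control B, and 0.7246 between the controls. More than 4-fold differences were found at 128 genes between the knockouts and at 3606 between the controls. Values of the chains are therefore given against each control as well as against both.

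CFL1 had 2285 and 2487 normalized counts in knockouts A and B, against 6276 and 13761 in controls A and B. Both knockouts were below both controls, and CFL1 stood at -2.07 ± 0.45 (SE) on the log2 scale of the authors' deposited table, with an adjusted p of 0.00168 by the DESeq2 Wald test. Of 5 markers of ductal carcinoma epithelium, KRT8 had 8150 and 8049 normalized counts in the knockouts, against 13712.5 in control A and 29355 in control B. KRT18 had 9031 and 8321 in the knockouts, against 11358 in control A and 22850 in control B, so for both genes both knockouts were below both controls. KRT19 had 0 reads in both knockouts, against 2 reads in control A and 2220 in control B. KRT7 had 4000.4 and 3683 normalized counts in the knockouts, 3551 in control A and 108 in control B. EPCAM had at most 42.5 normalized counts in any library. The 7 leukocyte markers summed to 74.4 and 53.9 normalized counts in the knockouts, against 53.6 in control A and 1359 in control B, where CD68 alone had 1217 and PTPRC had no read. The 4 endothelial markers that were measured summed to 15.9 and 20.5 in the knockouts, against 40.9 in control A and 165 in control B, where KDR had 156 and CDH5 and TEK had no read. The 6 fibroblast markers summed to 1203 and 1071 in the knockouts, against 895 in control A and 1861 in control B, with LUM at 0 reads throughout. Within that sum PDGFRB had 439 and 451 in the knockouts, against 513 in control A and 6.71 in control B, COL1A1 had 687 and 556 in the knockouts, against 354 in control A and 1574 in control B, and DCN had no read in control B. Of 4 platelet markers PF4, PPBP and GP9 had no read in any library, and none of 4 acinar markers had one. The part of these differences in the results below was not tested.

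Of the 37 chains, 27 had a base mean of at least 10 and an adjusted p. None of the 27 was called at an adjusted p under 0.05 in the authors' deposited table, where 0.559% of the 16629 genes with an adjusted p were called, 0.138% higher and 0.421% lower. At an unadjusted p under 0.05, 5 chains were lower in the knockouts (ITGAV, LAMB2, ITGAM, LAMA4 and ITGA6) and 0 were higher, against a background of 12.6% of genes in either direction, 9.49% lower and 3.13% higher. When limma was run on all 4 libraries, 0 of 34 chains with a mean of at least 1 were called and 0 had an unadjusted p under 0.05, where 0% and 2.02% of 24957 genes did. CFL1 itself was not called in that fit, with an adjusted p of 0.722 by limma. The median log2 fold change of the 27 chains in the authors' deposited table was -0.17, against -0.02 over all genes at that floor. LAMA4, ITGAM and ITGA10 passed this floor through their high level in control B, so they had to differ, and counts over the 27 are descriptions only. As these are bulk libraries, fewer cells that express a chain and less of its RNA per cell cannot be told apart.

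**Figure D1:**
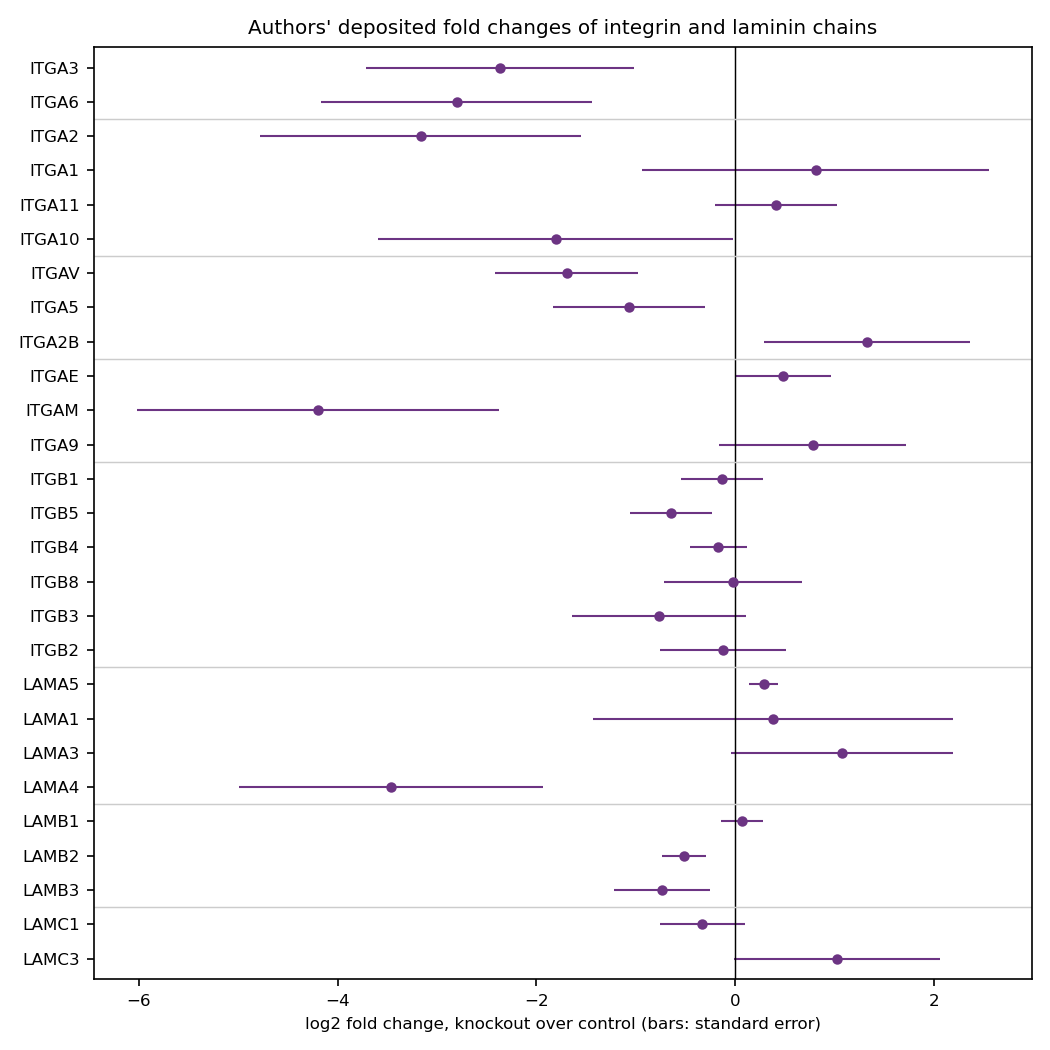
Log2 fold change of knockout over control (x axis) in the authors' deposited table for the 27 integrin and laminin chains averaging at least 10 normalized counts (y axis, grouped by class), with bars of 1 standard error. ITGAM lies farthest out at -4.20. The bars are widest for chains such as ITGAM, LAMA1 and ITGA1, on which the controls lay far apart. They are narrower for LAMC1 and ITGB1, whose controls also lay more than 2-fold apart. ITGA9, with few counts and controls within 2-fold, has a standard error of 0.94.

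The controls disagreed on most chains. They lay more than 2-fold apart for 19 of the 27 (70.4%), where 44.8% of all genes at that floor did so, while the knockouts lay that far apart for 3 chains (11.1%), where 4.03% of all genes did. Control B was the highest library for 16 chains and the lowest for 8, against 42.9% and 43.3% of all genes. The knockout mean was more than 2-fold from control A for 2 of the 27 chains (7.41%), ITGAM and ITGA10, where 5.7% of all genes were. Both passed the floor through control B and had at most 14 reads in any other library. Of the 19 chains with a base mean of at least 100, 0 had a knockout mean that far from control A. In that group 0 had knockouts more than 2-fold apart, and the shares over all genes at that base mean are not given. The knockout mean was more than 2-fold from control B for 19 of the 27 chains (70.4%), where 45.8% of all genes were. Both knockouts were below both controls for 5 chains, where 21.2% of all genes were, and above both for 5, where 23.7% were. Groups overlapped for the other 17.

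**Figure D2:**
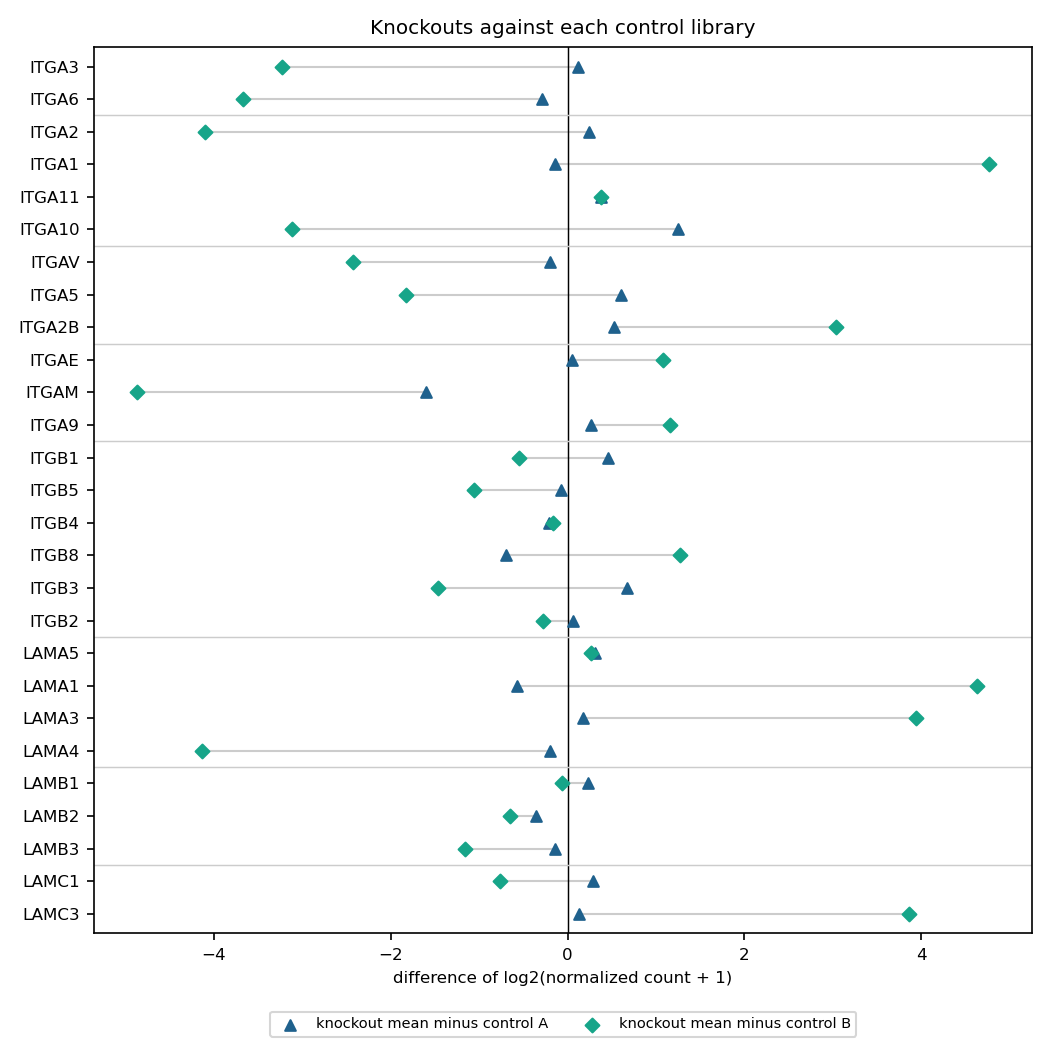
Knockout mean minus control A (triangles) and minus control B (diamonds) on the scale of log2(normalized count + 1) for the 27 chains with a base mean of at least 10, grouped by class. The differences from control A span -1.60 to 1.25, while those from control B span -4.87 to 4.77.

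Among the laminin-binding alpha chains, ITGA3 and ITGA6 were near control A in the knockouts and far below control B. ITGA3, the alpha chain that pairs with beta 1 to bind laminins, had 2221 and 2192 normalized counts in the knockouts, against 2039 in control A and 20701 in control B. The knockouts lay just above control A and control B was the outlying library, so the groups overlapped. ITGA3 stood at a log2 fold change of -2.37 ± 1.35 (SE) in the authors' deposited table, with an adjusted p of 0.453 by the DESeq2 Wald test. ITGA6, which pairs with beta 4 in hemidesmosomes and also with beta 1, had 1061 and 1087 normalized counts in the knockouts, against 1314 in control A and 13678 in control B. Both knockouts were below both controls, with differences of -0.29 from control A and -3.67 from control B on the log2(normalized count + 1) scale. It stood at a log2 fold change of -2.80 ± 1.36 (SE) in the authors' deposited table, with an unadjusted p of 0.0397 and an adjusted p of 0.374 by the DESeq2 Wald test. ITGA7, best known as a laminin receptor of muscle, had at most 19 reads in a library and a base mean under 10.

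The collagen-binding alpha chains held the plainest contrast within the integrins: ITGA2 and ITGA1, neighbours in the genome, went opposite ways in control B. ITGA2, a collagen receptor of epithelium and platelets that can also bind laminin, had 1436 and 1709 normalized counts in the knockouts, against 1329 in control A and 26889 in control B. ITGA1, a receptor for collagens including the type IV collagen of basement membranes, had 2263 and 2306 in the knockouts, against 2521 in control A and 82.7 in control B. For both genes the knockouts and control A formed a narrow band, and control B lay outside it, above for ITGA2 and below for ITGA1. Log2 fold changes in the authors' deposited table were -3.17 ± 1.62 (SE) for ITGA2 and 0.81 ± 1.75 (SE) for ITGA1, with adjusted p of 0.396 and 0.841 by the DESeq2 Wald test. Per kb of the longest transcript, ITGA2 made up 46.0% and 49.7% of the summed normalized count of the 4 collagen-binding chains in the knockouts, 41.6% in control A and 99.4% in control B. ITGA1 made up 53.0% and 49.0% in the knockouts, 57.7% in control A and 0.22% in control B. ITGA11, known as a receptor of fibroblasts, had 37.2 and 28.0 normalized counts in the knockouts, against 24.5 and 24.6 in the controls. ITGA10, known from cartilage, had 1.77 and 15.1 normalized counts in the knockouts, against 1.82 in control A and 57.0 in control B.

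The starts of ITGA1 and ITGA2 lie 201 kb apart on chromosome 5 in RefSeq's GRCh38.p14 annotation, a later build than the hg19 of the submitters' notes. Their promoters are shown because the pair is adjacent and yet differed in opposite ways in control B, and that of LAMA3 is added as the one chain promoter with an AP-1 match. Each line gives the 250 bases before a single annotated start per gene, 5′ to 3′ on the gene's strand. Any other start of a gene was not searched. Capitals mark matches, on either strand, to the GC box GGGCGG bound by SP1 family factors or the AP-1 motif TGANTCA. The windows are chr5:52787666-52787915 (plus strand) for ITGA1, chr5:52989102-52989351 (plus strand) for ITGA2 and chr18:23872770-23873019 (plus strand) for LAMA3.
ITGA1: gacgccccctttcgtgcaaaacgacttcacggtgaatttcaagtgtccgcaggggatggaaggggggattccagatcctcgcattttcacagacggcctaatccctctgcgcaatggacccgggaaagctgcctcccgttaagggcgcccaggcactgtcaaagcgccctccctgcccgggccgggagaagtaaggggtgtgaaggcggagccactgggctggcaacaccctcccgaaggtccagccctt
ITGA2: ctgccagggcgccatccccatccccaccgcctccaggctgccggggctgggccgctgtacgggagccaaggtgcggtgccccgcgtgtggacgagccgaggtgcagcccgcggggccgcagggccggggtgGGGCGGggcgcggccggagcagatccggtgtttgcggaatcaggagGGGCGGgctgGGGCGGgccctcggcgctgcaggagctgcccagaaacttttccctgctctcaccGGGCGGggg
LAMA3: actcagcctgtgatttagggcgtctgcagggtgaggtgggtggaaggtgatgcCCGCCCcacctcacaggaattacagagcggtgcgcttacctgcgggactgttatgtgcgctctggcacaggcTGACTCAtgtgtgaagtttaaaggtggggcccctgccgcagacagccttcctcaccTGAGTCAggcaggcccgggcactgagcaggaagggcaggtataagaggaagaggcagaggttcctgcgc
The ITGA2 window holds 4 GC boxes and the ITGA1 window 0, and the ITGA2 window is also richer in G and C (76.4% against 62% of bases). Of the 26 chains with an entry in the RefSeq promoter table, 13 hold a GC box in this window, where 42.3% of 27305 promoters do. The AP-1 motif is in 1 of the 26, LAMA3 with 2 matches, where 6.60% of all promoters hold it. A match is a description of the letters and not a site of binding.

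Among the RGD-binding alpha chains, which recognise a short peptide in fibronectin, vitronectin and latent TGF-beta, ITGAV and ITGA5 were both far lower in the knockouts than in control B. ITGAV had 3046 and 3684 normalized counts in the knockouts, against 3839 in control A and 17974 in control B. Both knockouts were below both controls, although knockout B lay close to control A. ITGAV stood at a log2 fold change of -1.70 ± 0.72 (SE) in the authors' deposited table, with an unadjusted p of 0.0188 and an adjusted p of 0.294 by the DESeq2 Wald test. ITGA5, the alpha chain of the main fibronectin receptor, had 3443 and 3237 normalized counts in the knockouts, against 2195 in control A and 11826 in control B. The knockouts lay between the controls, with differences of 0.60 from control A and -1.82 from control B on the log2(normalized count + 1) scale, and ITGA5 stood at -1.07 ± 0.76 (SE) in the authors' deposited table, with an adjusted p of 0.550 by the DESeq2 Wald test. ITGA2B, the platelet fibrinogen receptor chain, had 70.0 and 55.0 normalized counts in the knockouts, against 42.7 in control A and 6.71 in control B, so both knockouts were above both controls. ITGA8 had no read in any of the 4 libraries.

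Of the other alpha chains ITGAE was the most abundant. ITGAE, which pairs with beta 7 on intraepithelial lymphocytes and binds E-cadherin, had 427 and 391 normalized counts in the knockouts, against 394 in control A and 192 in control B, whereas its partner ITGB7 had at most 6 reads in a library. ITGAM, a chain of myeloid cells, had 4 and 0 reads in the knockouts, against 6 in control A and 55 in control B. It stood at a log2 fold change of -4.20 ± 1.83 (SE) in the authors' deposited table, with an unadjusted p of 0.0215 and an adjusted p of 0.309 by the DESeq2 Wald test. The reads of ITGAM in control B accompanied the 1217 normalized counts of CD68 there, with PTPRC at no read. ITGA9 had 12.4 and 28.0 normalized counts in the knockouts, against 15.5 and 7.82 in controls A and B. The leukocyte chains ITGAD, ITGAX, ITGAL and ITGA4 had at most 9 reads in any library.

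**Figure D3:**
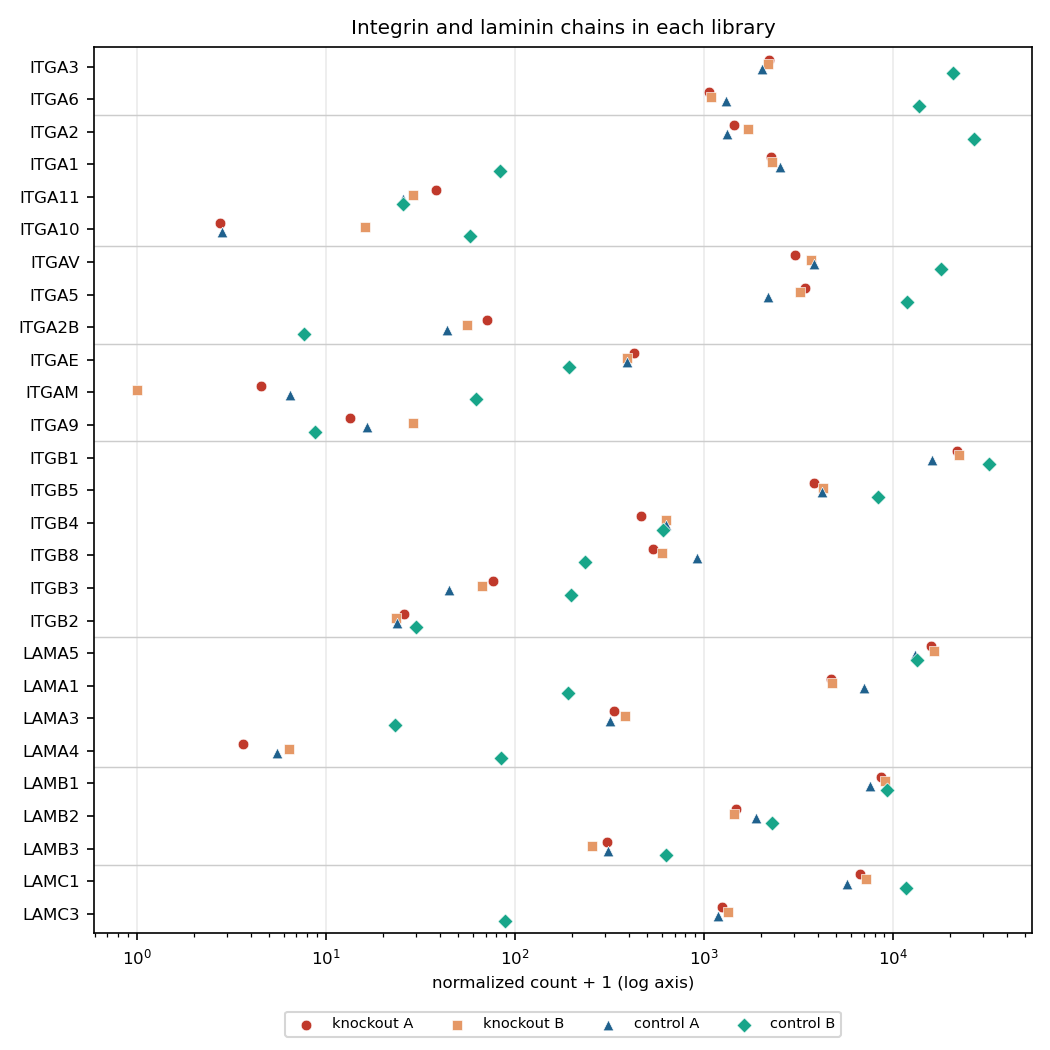
Normalized count + 1 on a log axis for the 27 chains averaging at least 10 in knockout A (circles), knockout B (squares), control A (triangles) and control B (diamonds), grouped by class and displaced vertically for legibility. The knockouts and control A lie close together for most chains, and control B lies far to the right for ITGA3, ITGA6 and ITGA2 and far to the left for ITGA1, LAMA1 and LAMC3.

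The knockout mean was more than 4-fold from control B for 8 of 18 integrin chains and for 0 of the 6 beta chains among them, where 21.6% of 17274 genes were that far from control B. The groups overlapped for all 6 beta chains, as they did for 55.1% of those genes. ITGB1, the partner of most alpha chains, was the most abundant member per kb. It had 21785 and 22494 normalized counts in the knockouts, against 16127 in control A and 32403 in control B. The knockouts lay between the controls, and ITGB1 stood at -0.13 ± 0.41 (SE) on the log2 scale of the authors' deposited table, with an adjusted p of 0.890 by the DESeq2 Wald test. A processed copy, ITGB1P1, had 437 and 335 normalized counts in the knockouts, against 174 in control A and 733 in control B, and reads of both genes may have been divided by the authors' estimation. ITGB5, a partner of alpha V, had 3816 and 4255 normalized counts in the knockouts, against 4241 in control A and 8377 in control B. It stood at a log2 fold change of -0.64 ± 0.41 (SE) in the authors' deposited table, with an adjusted p of 0.506 by the DESeq2 Wald test.

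ITGB4, the hemidesmosome chain that pairs only with alpha 6, had 466 and 633 normalized counts in the knockouts, against 626 in control A and 607 in control B. ITGB4 was level in the controls while its partner ITGA6 was 10.4-fold higher in control B than in control A. ITGB4 stood at a log2 fold change of -0.17 ± 0.29 (SE) in the authors' deposited table, with an adjusted p of 0.803 by the DESeq2 Wald test. ITGB8, which with alpha V activates latent TGF-beta, had 540.1 and 597 normalized counts in the knockouts, against 919 in control A and 235 in control B. The knockouts lay between the controls, with differences of -0.69 from control A and 1.27 from control B on the log2(normalized count + 1) scale, and the deposited fold change of -0.02 ± 0.70 (SE, authors' deposited table) had an adjusted p of 0.990 by the DESeq2 Wald test. ITGB3, the partner of alpha IIb and alpha V, had 75.3 and 65.8 normalized counts in the knockouts, against 43.6 in control A and 197 in control B. ITGB2, the shared beta chain of leukocytes, had between 22.6 and 29.1 normalized counts in all 4 libraries. ITGB6 had at most 5 reads in a library.

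Of the laminin alpha chains, LAMA5 had slightly more counts in each knockout than in either control. LAMA5, the alpha chain of most epithelial basement membranes, had 15918 and 16517 normalized counts in the knockouts, against 13099 and 13465 in controls A and B. The controls lay 1.03-fold apart, and the difference was of like size against each, 0.31 from control A and 0.27 from control B on the log2(normalized count + 1) scale. LAMA5 stood at a log2 fold change of 0.29 ± 0.15 (SE) in the authors' deposited table, with an unadjusted p of 0.0530 and an adjusted p of 0.405 by the DESeq2 Wald test. LAMA1, a chain best known from embryonic basement membranes, had 4694 and 4789 normalized counts in the knockouts, against 7073 in control A and 190.0 in control B. The knockouts lay between controls that were 37.2-fold apart, and LAMA1 stood at 0.38 ± 1.81 (SE) on the log2 scale of the authors' deposited table, with an adjusted p of 0.927 by the DESeq2 Wald test.

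LAMA3, the alpha chain of the laminin that anchors hemidesmosomes, had 336 and 384 normalized counts in the knockouts, against 319 in control A and 22.4 in control B. The difference from control A was 0.17 on the log2(normalized count + 1) scale and that from control B 3.95. The window printed above for LAMA3 is the one with both AP-1 matches. LAMA4, a chain of vessel walls and mesenchyme, had 3 and 5 reads in the knockouts, against 5 in control A and 75 in control B. The knockouts and control A were alike, and LAMA4 stood at -3.46 ± 1.53 (SE) on the log2 scale of the authors' deposited table, with an unadjusted p of 0.0238 and an adjusted p of 0.322 by the DESeq2 Wald test. The endothelial marker KDR had 140 reads in control B and none elsewhere, while CDH5 had 0 in control B. LAMA2, known from muscle, had at most 17 reads in a library.

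Of the laminin beta chains, LAMB2 had fewer counts in each knockout than in either control, and the controls differed little. LAMB2, known from the basement membranes of kidney and neuromuscular junction, had 1483 and 1446 normalized counts in the knockouts, against 1883 in control A and 2296 in control B. The difference was -0.36 from control A and -0.65 from control B on the log2(normalized count + 1) scale. It stood at a log2 fold change of -0.51 ± 0.22 (SE) in the authors' deposited table, with an unadjusted p of 0.0196 and an adjusted p of 0.300 by the DESeq2 Wald test. LAMB1, the beta chain of most laminins of the embryo and of many tissues, had 8659.6 and 9051 normalized counts in the knockouts, against 7564 in control A and 9260.1 in control B. The groups overlapped, and LAMB1 stood at 0.07 ± 0.21 (SE) on the log2 scale of the authors' deposited table, with an adjusted p of 0.880 by the DESeq2 Wald test. LAMB3, which joins LAMA3 in the hemidesmosome laminin, had 308 and 254.5 normalized counts in the knockouts, against 309 in control A and 628 in control B. Knockout A was thus level with control A. LAMB4 had 1 read, in control A.

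Of the laminin gamma chains, LAMC1 and LAMC3 were closer to control A than to control B in the knockouts, with control B the highest library for LAMC1 and the lowest for LAMC3. LAMC1, the gamma chain of most laminins, had 6672 and 7241 normalized counts in the knockouts, against 5709 in control A and 11780.5 in control B. The knockouts lay between the controls, and LAMC1 stood at -0.33 ± 0.43 (SE) on the log2 scale of the authors' deposited table, with an adjusted p of 0.737 by the DESeq2 Wald test. LAMC3 had 1248 and 1347 normalized counts in the knockouts, against 1183 in control A and 88.3 in control B. Both knockouts were above both controls, by 0.13 from control A and 3.86 from control B on the log2(normalized count + 1) scale, with an adjusted p of 0.669 by the DESeq2 Wald test in the authors' deposited table.

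Per kb of transcript, LAMA5 took a larger share of the laminin alpha chains in control B than in the other 3 libraries. It made up 72.9% and 73.05% in the knockouts, 60.02% in control A and 97.0% in control B, and LAMA1 made up 25.4% and 25.1% in the knockouts, 38.3% in control A and 1.62% in control B. Among integrin alpha chains ITGA5 made up 32.5% and 29.7% in the knockouts, 22.3% in control A and 17.3% in control B, so its share in each knockout exceeded that in either control. The summed count per kb of the alpha chains was 2386 and 2455 in the knockouts, 2217 in control A and 15398 in control B. The count of ITGA5 itself was highest in control B, at 11826. ITGB1 also had a higher share of the beta chains in both knockouts, 84.7% and 83.5%, against 78.0% and 80.3% in the controls, and ITGB5 a lower one, 12.8% and 13.7% against 17.8% and 18.0%. Among laminin beta chains LAMB1 had a higher share in both knockouts, 81.9% and 83.3% against 76.5% and 74.5%. LAMB2 had a lower one, 14.2% and 13.5% against 19.3% and 18.8%. The shares of a class add up to a whole, so a higher share of some chain goes with lower shares of others. Counts of ITGB1, ITGB5 and LAMB1 overlapped between the groups, whereas those of LAMB2 were lower in both knockouts than in either control.

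**Figure D4:**
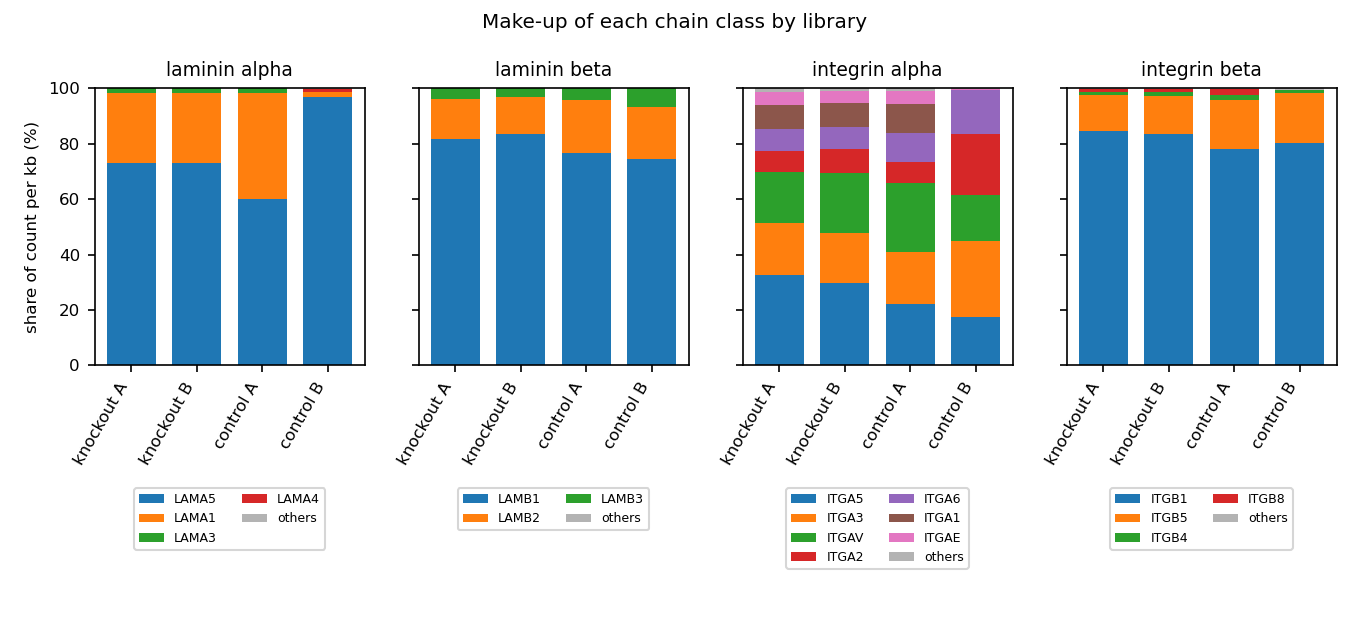
Share of each chain in its class (y axis, percent of the summed normalized count per kb of longest transcript) in knockout A, knockout B, control A and control B (x axis) for laminin alpha and beta and integrin alpha and beta chains. LAMA5 fills 97.0% of the laminin alpha bar in control B and at most 73.05% in the other libraries, while LAMB1, LAMB2 and LAMB3 keep their order in all 4 bars.

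Leaving out each control in turn gave different counts of calls. Without control B, limma called 0 of 34 chains, where 0% of 24957 genes were called, and 5 had an unadjusted p under 0.05 (14.7%, against 12.9% of all genes). These 5 were ITGA5 (0.60), higher in the knockouts, and ITGA6 (-0.29), ITGB8 (-0.69), LAMA1 (-0.58) and LAMB2 (-0.36), lower, all as differences on the log2(normalized count + 1) scale, with adjusted p between 0.352 and 0.372 by limma. Without control A, limma called 16 of 34 chains, 7 higher and 9 lower in the knockouts (47.1%, against 33.5% of all genes). In both fits the lone control was assumed to vary like the knockouts. Of the 5 named, LAMB2 and ITGA6 were lower in both fits, whereas ITGB8, ITGA5 and LAMA1 had opposite directions in them. The fits share both knockouts, so these directions restate where the knockout mean lay against each control. Controls lay within 2-fold of each other for 8 chains (ITGA11, ITGA9, ITGB5, ITGB4, ITGB2, LAMA5, LAMB1 and LAMB2), a group set after the values were seen. Among these 8, both knockouts were above both controls for LAMA5 and ITGA11 and below both for LAMB2. Over all genes averaging at least 10, 21.2% had both knockouts below both controls and 23.7% had both above. Those shares include the 44.8% of genes whose controls lay more than 2-fold apart. The share among genes whose controls lay within 2-fold is not given, so these 8 chains are described only.

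The proteins that work with these chains were grouped in 4 lists, whose members were chosen with earlier results of these data known. Of 22 cytoplasmic activators and linkers, such as talins, kindlins and filamin, 0 of the 21 with an adjusted p were called, where 0.559% of all genes were, and 3 were lower (ACTN4, PXN and TNS3) and 0 higher at an unadjusted p under 0.05 in the authors' deposited table, against 9.49% and 3.13% of all genes. FLNA, the actin crosslinker filamin A, was the most abundant, at a log2 fold change of -0.17 ± 0.28 (SE) in the authors' deposited table, with an adjusted p of 0.796 by the DESeq2 Wald test. Its reads per library were not recovered. The median difference of the 21 members with recovered reads and a mean of at least 10, which leave out FLNA and include FERMT3, was 0.07 from control A and -0.39 from control B on the log2(normalized count + 1) scale.

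Of 15 hemidesmosome, tetraspanin and membrane partners, 0 were called, and at an unadjusted p under 0.05 in the authors' deposited table there were 7 lower and 1 higher, SLC3A2, against 9.49% and 3.13% of all genes. PLEC, which links integrin alpha 6 beta 4 to keratin and was the most abundant, had 14157 and 14249 normalized counts in the knockouts, against 13206 in control A and 25946 in control B. The median difference of the 15 was 0.08 from control A and -0.98 from control B on the same scale. Of 16 other basement membrane proteins and laminin receptors, NID1 was the one called, lower in the knockouts, where 0.421% of all genes were called lower. The median difference of the 16 was 0.39 from control A and -0.12 from control B. NID1, which bridges laminin and type IV collagen, had no read in either knockout or in control A and 2528 reads in control B, and its adjusted p was 0.000164 by the DESeq2 Wald test in the authors' deposited table. RPSA, a ribosomal protein also described as a laminin receptor and the most abundant of the list, had 22122 and 24254 normalized counts in the knockouts, against 24440.4 and 25611 in controls A and B.

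Of 21 integrin ligands other than laminins, TNC was the one called of 17 with an adjusted p, and it was higher in the knockouts, where 0.138% of all genes were called higher. The median difference of the 17 was 0.42 from control A and 0.69 from control B. TNC, the matrix protein tenascin-C, had 336 and 249 normalized counts in the knockouts, against 20.0 in control A and 53.6 in control B. Both knockouts were above both controls, with differences of 3.79 from control A and 2.41 from control B on the log2(normalized count + 1) scale, and TNC stood at 3.001 ± 0.64 (SE) on the log2 scale of the authors' deposited table, with an adjusted p of 0.00102 by the DESeq2 Wald test. The most abundant ligand gene by base mean, ICAM1, which is bound by the beta 2 integrins of leukocytes, had 197 and 226 normalized counts in the knockouts, against 199.9 in control A and 19944 in control B. Limma without control B called no gene at all, and NID1, which had no read outside control B, could not be called there. At an unadjusted p under 0.05 that fit held 5 of 21 linkers, 4 of 15 hemidesmosome and tetraspanin partners, 8 of 16 basement membrane genes and 7 of 20 ligands, against 12.9% of all genes. That background holds all genes with means of at least 1, whereas most listed genes averaged far more and were chosen with earlier results known. The counts of the lists are therefore descriptions only. With all 4 libraries limma called none of the 24957 genes tested.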

How the data were processed

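Total RNA of RNA integrity number of at least 7 was sequenced, per the labels' protocols, and reads were handled with STAR, RSEM, cutadapt and FastQC on hg19, per the submitters' processing notes, which give no versions. The authors' DESeq2 table holds, as deposited, the base mean (a signal: the mean over 4 libraries of counts divided by size factors), the log2 fold change of knockout over control with its standard error on the log2 scale, the Wald score, and the unadjusted and adjusted p-value. Calls rest on the authors' adjusted p at a threshold of 0.05 in the deposited table, which has no column per library, so no count model was refitted as the main result.

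Reads per library were recovered by listing the whole numbers that sum to a base mean printed to 15 digits, with steps taken from genes with 1 read, and keeping those whose refitted fold change matched the deposited one. Of 17274 recovered genes averaging at least 10, 16884 matched within 1e-06 log2. Base means shifted on purpose gave a solution for 1 of 40 genes from 10000 to 30000 and for 0 of 150 in each of 3 lower ranges. The authors' RSEM counts are estimates, so these reads are its rounded estimates, divided among similar genes. The largest difference between refitted and deposited fold change among the chains was 1.1e-05 log2. Antisense genes of LAMA5, ITGB5, ITGB2 and ITGA9 had base means under 6, and strandedness is not given in the sources used here.

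Normalized counts are recovered reads over the size factors. limma 3.58.1 (R 4.3.3, trended) was run on log2(normalized count + 1), which understates changes of low genes, for means of at least 1. Alternatives were a pseudocount of 0.1, means of at least 10, and each library left out. Lengths are of the longest GENCODE transcript. Promoters are from RefSeq GRCh38.p14 and 26 of 37 chains matched by symbol. The result of 1 of the 38 chains is not reported here, and counts over the chains leave it out. Chains and lists were chosen with earlier results of these data known. Values per library are given for chains with a base mean of at least 500 or an unadjusted p under 0.05, and for others that complete a class, the last chosen after their values were seen. With 2 libraries against 2, an exact permutation test of a single value cannot go below 0.333, so none was used. Python 3.11.15, numpy 2.4.6, pandas 2.3.3 and scipy 1.17.1 were used.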

Additional observations from a re-analysis of the deposited data

How the results depend on the processing

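The count of called chains stayed at 0 with limma at pseudocounts of 1 and 0.1 and means of at least 10 (the last chosen after seeing the data), was 5 by the authors' unadjusted p, and spanned 0 to 16 with 1 library left out, 16 without control A. With all 4 libraries limma called no gene at those pseudocounts and that floor. CFL1 itself had adjusted p of 0.722, 0.727 and 0.690 there by limma, so the 0 for the chains does not show stability. The median log2 fold change of the chains spanned -0.55 to 0.11 with 1 library left out. Chains with both knockouts below both controls numbered 6 to 16, and those above 6 to 12, with 1 library left out, since fewer libraries have to be separated. At base means of at least 100, 3 chains lay above. Shares over all genes at these settings are not given, so these counts are descriptions of the chains only. By the unadjusted p, called members numbered 3 for cytoplasmic linkers, 8 for hemidesmosome and tetraspanin partners, 5 for basement membrane and 6 for ligands. Without control B, an alternative for the lists also chosen after seeing the data, limma called no gene at all. The lack of calls in the basement membrane and ligand lists there therefore says nothing of NID1 or TNC. The knockout mean differed from control A by 3.79 for TNC and by 0 for NID1 on the log2(normalized count + 1) scale. Direction turned for ITGB8 in limma at pseudocounts of 1 and 0.1 (0.29 each). With 1 library left out, fold changes on the log2(normalized count + 1) scale spanned -0.14 to 4.77 for ITGA1, -4.10 to 0.24 for ITGA2, -3.23 to 0.11 for ITGA3, -1.82 to 0.60 for ITGA5, -0.55 to 0.46 for ITGB1, -0.40 to 0.038 for ITGB4, -0.69 to 1.27 for ITGB8, -0.58 to 4.63 for LAMA1, -0.065 to 0.23 for LAMB1 and -0.76 to 0.28 for LAMC1. These turned without control B, except ITGB8 and LAMB1 without control A and ITGB4 and ITGB8 without a knockout. The cause was not tested. No paired analysis was possible because the recovered libraries carry no replicate numbers of the labels. With 2 libraries a group, 10 chains with base means under 10 were too sparse to compare at this depth.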
